A study of Mus musculus with 12 samples.

Results

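Liver transcript levels of MOER mice were compared with those of ERKO mice after injections of oil alone, without any receptor agonist. The comparison rests on 4 of the 12 arrays of the series, chosen by title: MOER control 1 and 2, and ERKO control 1 and 2. Per the labels, ERKO mice lack oestrogen receptor alpha, and MOER mice have that receptor at the cell membrane only. All were C57BL/6 per the labels, 3 months old, ovariectomized, left to recover for 1 week and injected with 0.1 mL of oil daily for 3 days. The other 8 arrays were wild type mice given oil, and wild type, ERKO and MOER mice given 100 µg a day of PPT, which activates oestrogen receptor alpha selectively, for 3 days. RNA from the whole livers of 3 mice was pooled for each array, and each of the 6 groups had 2 arrays. The labels say that the study was done a second time but do not tie the arrays of a group to separate animals. The p-values therefore measure only the spread between arrays of a group, taken for each probe set as 1 estimate over all 6 groups. The labels give neither the construct of the MOER receptor nor the promoter or cells that express it, and a pool hides the spread between its mice.

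Oestrogen receptor alpha is a ligand-activated transcription factor that binds DNA in the nucleus, and a small pool of it at the plasma membrane signals through kinases. In liver it is known for its effects on lipid, bile acid and steroid metabolism and on secreted proteins. The liver also runs a circadian clock, in which Arntl and Clock drive the Per, Nr1d and Dbp genes, whose products feed back on the clock and time many metabolic enzymes. Because the mice had no ovaries and received no agonist, the comparison asks how the 2 genotypes differed at baseline, as far as the labels state the purpose of the oil groups.

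Of 28815 probe sets on the Affymetrix array, 19119 lay above the 40th percentile of their array on at least 2 of the 12 arrays and were tested, and they represented 13987 genes with a symbol of their own. Levels are deposited hybridisation intensities on a linear scale, and a log2 difference is MOER minus ERKO on log2(intensity + 16) with its standard error. Calls were made at a limma p under 0.05 after Benjamini-Hochberg adjustment over every probe set tested. Array medians lay between 77.5 and 85.26. The ERKO oil arrays stood apart from the other pairs: they correlated at 0.9815 across probe sets, against 0.994 to 0.9965 within the other groups, and their values for 162 probe sets lay over 2-fold apart, against 2 to 21 elsewhere. Counts over gene lists are therefore also given without each of them. Because all 6 groups share 1 estimate of the spread, errors and p-values can be too small for a comparison that holds the ERKO oil arrays. Array quality weights were 0.24 for the ERKO oil arrays and 1.06 to 1.73 for the others. With these weights fewer probe sets were called, as given in the closing section. Without replicate 1 of ERKO oil, 9.25% of all genes were called higher and 2.15% lower in MOER, and without replicate 2 it was 2.26% and 4.83%, against which the counts without these arrays are to be read. Of the called genes described below, Vcpkmt and Cyp8b1 lost their call without ERKO oil replicate 2. Esr1, the gene of the receptor, read 126 and 118 on the ERKO oil arrays, 126 and 128 on the MOER oil arrays, and 347 and 365 in wild type under oil. Its MOER minus ERKO difference was 0.06 ± 0.093 (adjusted p = 0.816), so this probe set checks neither the MOER label against ERKO nor the receptor protein.

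Between the 2 genotypes 171 probe sets were higher in MOER and 221 were lower, which is 0.894% and 1.16% of those tested and 2.05% in all. A difference of at least 2-fold was seen in 46 (0.241%) and 34 (0.178%) of them. As genes with their own probe set these were 128 higher and 174 lower, or 0.915% and 1.24% of the genes tested and 2.16% in all. Pancreatic digestive enzymes made up most of the largest differences, and on no list of another tissue the largest were in the MHC class II gene H2-Ea, the pseudogene Adh6-ps1, the clock gene Ciart, the GTPase Gbp11 and the cytochrome P450 gene Cyp17a1. Across all genes the median log2 difference was 0.03. The numbers of calls depend on single arrays: without ERKO oil replicate 1 there were 1739 higher and 412 lower, and without ERKO oil replicate 2 there were 447 higher and 863 lower. Leaving out a MOER oil array brought the higher calls to as few as 67 (without replicate 1) and the lower calls to as few as 56 (without replicate 2). The named genes therefore carry the description below. Of 92 called genes put through 11 alternative settings other than leaving out 1 array, 36 kept their call under all of them. The 92 include genes that are not described here, and Cd36, which is described, was not among them.

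**Figure D1:**
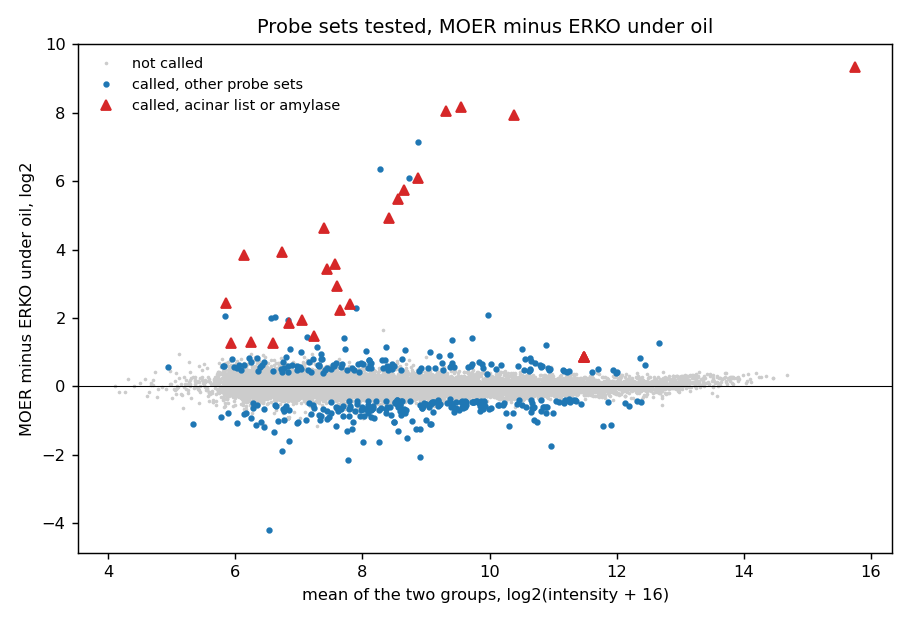
Each point is 1 of the 19119 probe sets tested, with the mean of the MOER oil and ERKO oil groups on log2(intensity + 16) along the horizontal axis and the log2 difference MOER minus ERKO along the vertical axis. Grey points were not called, blue points were called and red triangles are called genes of the pancreatic acinar list or amylase probe sets, which hold most of the differences above 2 on the log2 scale, while the lowest point is Adh6-ps1 at -4.19.

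Transcripts of pancreatic acinar cells, the cells that secrete digestive enzymes, were bright on both MOER oil arrays, and for the enzymes named here none of the other 10 arrays came near that level. Cpb1, which encodes the digestive enzyme carboxypeptidase B, read 13211 and 12058 on the MOER oil arrays and 22.9 and 34.0 on the ERKO oil arrays. Try4, a trypsinogen, read 25170.4 and 16725 against 48.3 and 91.6, and Cpa1, carboxypeptidase A, 2458 and 2467 against 26.7 and 55.0; these 2 genes were picked after their values were seen. Between wild type oil, ERKO PPT and MOER PPT arrays, Cpb1 stayed between 12.6 and 19.3. No array of the ERKO oil group came near either MOER oil array for any of these enzymes.

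The difference can be given only as a lower bound where both arrays of the dimmer group lay at or below the 40th percentile of their array (53.576 to 60.98), a level called dim here. The bound sets each dim array at no less than that percentile. By this bound Cpb1 was at least 226-fold higher in MOER (adjusted p = 7.64e-11) and 2210010C04Rik, a trypsinogen-like gene that read 10148 and 10563 against 30.9 and 15.9, at least 185-fold (adjusted p = 3.13e-09). Both were dim in ERKO and among the brighter transcripts of the MOER oil livers. Ctrl, a chymotrypsin-like protease, was at least 69.1-fold higher, with 3878 and 3851 against 46.8 and 34.5. Rnase1, the pancreatic ribonuclease, was at least 52.2-fold higher, with 2983 and 2849 against 32.3 and 47.0. Try5, another trypsinogen, was at least 33.2-fold higher, with 1956 and 1756 against 48.9 and 42.8. The arrays of the 2 groups did not overlap for these protease and nuclease genes, as for all 392 called probe sets. Cel, the bile salt-activated lipase, read 869 and 779 against 20.5 and 15.6, at least 14.7-fold. Pnliprp1, a pancreatic lipase-related protein, read 424 and 374 against 10.2 and 12.5, at least 7.12-fold, and Reg1, a secreted protein of acinar cells, 268 and 234 against 3.49 and 1.72, at least 4.48-fold. Their adjusted p-values lay at 5.18e-08 or below. Cpb1, 2210010C04Rik, Ctrl, Rnase1, Cel, Pnliprp1 and Reg1 passed the filter only through the MOER oil arrays. Their p-values are therefore a description and no test of these genes.

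**Figure D2:**
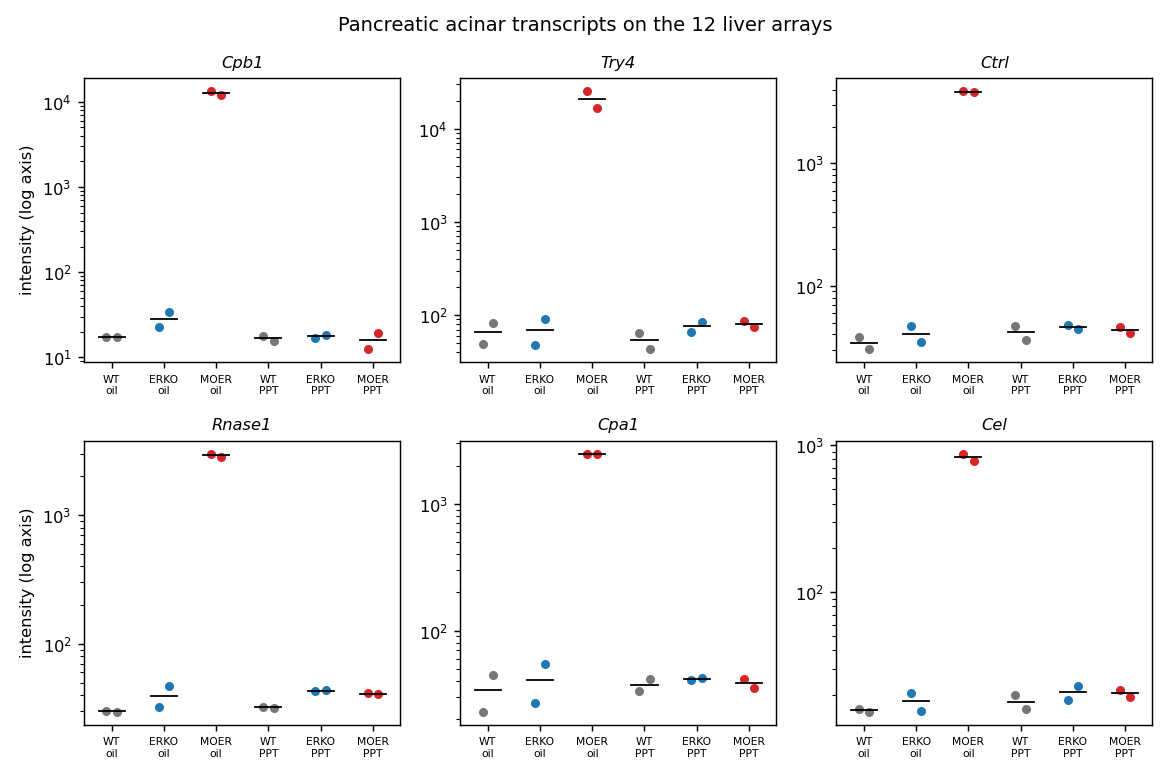
Deposited intensity (log axis) of 6 pancreatic acinar transcripts on each of the 12 arrays, by group, with a line at each group mean. For Cpb1, Try4, Ctrl, Rnase1, Cpa1 and Cel both MOER oil arrays lie far above the other 10 arrays, which overlap each other.

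Of the 59 genes on the acinar list, 12 had no probe set of their own, 11 were too dim to test and 36 were tested. Of these 36, 22 were higher in MOER, all of them by at least 2-fold, and 0 were lower, beside 0.915% of all genes that were higher and 0.257% that were higher by at least 2-fold; 13 of the 22 passed the filter only through the MOER oil arrays, so the count is a description and no test of the list. Without either ERKO oil array the count remained 22. The intensities of the 47 listed genes with a probe set summed to 5014 and 5038 on the ERKO oil arrays and to 69956 and 59684 on the MOER oil arrays. They summed to 5034 and 5096 in wild type under oil and to 5567 and 5578 in MOER under PPT. Among these 4 groups the MOER oil group was the one with a raised sum. Under PPT, sums of 8748 and 8533 in ERKO and 10060.2 and 10161 in wild type lay in between. These sums hold more than enzymes. Aqp8, a water channel bright on all 12 arrays, read 6127 and 6238 in wild type under PPT and 2247 and 2245 in wild type under oil. Cpb1 read 18.02 and 15.51 in wild type under PPT, and Cel 19.85 and 16.02. Reg3b, a secreted antibacterial lectin that other epithelia also make, read 2745 and 2732 in ERKO under PPT but 11.3 and 16.6 in wild type under PPT.

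The list did not move as a whole. Transcription factors of acinar cells were not called: Ptf1a, a master regulator of the acinar fate, read 81.8 and 138 in ERKO and 113 and 136 in MOER (0.19 ± 0.2, adjusted p = 0.673). Bhlha15, a secretory cell regulator, differed by 0.08 ± 0.2 (adjusted p = 0.88), and Nr5a2, which hepatocytes also express, by -0.01 ± 0.094 (adjusted p = 0.966). Secreted enzymes with smaller differences were Ctrb1, a chymotrypsinogen (504 and 506 against 30.9 and 82.9; log2 difference 2.93 ± 0.26, adjusted p = 0.000181), and Cela2a, an elastase (606 and 397 against 73.0 and 88.1; 2.40 ± 0.16, adjusted p = 1.85e-05). Markers of pancreatic islets, the hormone-secreting cells of the same organ, were not called in either direction. Limma called 0 of 8 tested, and 0 had an unadjusted p under 0.05. A Cyber-T style test also called 0, but it counts only differences of at least 2-fold. The islet log2 differences ran from -0.07 to 0.3, so that 0 was fixed in advance and nothing is read from it. Of the 8, 2 passed the filter only through the ERKO oil arrays. Islet sums over 10 probe sets were 568 and 782 in ERKO and 729 and 747 in MOER. Amylase, the starch-digesting enzyme, could be read only from probe sets shared by Amy2a2, Amy2a5 and Amy2b. Probe set 10501494 read 1602759 and 1219897 in MOER oil, beyond the 65535 that a 16-bit scanner can return, and 2285 and 2013 in ERKO oil. The other 4 amylase probe sets held identical values, 3880 and 3780 in MOER against 2132 and 2091 in ERKO. In bulk tissue, more cells of a type and more RNA per cell cannot be told apart, and what part RNA from acinar cells has in the other differences was not tested. Without the acinar list and the amylase probe sets, a choice made after seeing the data, 144 probe sets were higher in MOER and 23 of them by at least 2-fold, instead of 171 and 46. Only amylase and listed genes with a probe set of their own were taken out. Probe set 10537650, shared by Gm10334, Gm5771, Prss1 and Prss3 of the list, stayed in (822 and 257 in MOER oil, 58.5 and 113 in ERKO oil). So did 10537014 (2887 and 2677 against 14.5 and 22.6) and 10464298 (3496 and 3380 against 22.5 and 49.8), which have no symbol.

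The start-site windows of Cpa1 and Cel are shown because both genes were called and their windows hold the short element TTTCCCA, part of the site bound by the acinar factor PTF1, here on the opposite strand and so written TGGGAAA. Each sequence is the 300 bases around a RefSeq start (250 before and 50 after) on GRCm38.p6, 5′ to 3′ on the gene's strand, with the element in capitals. Cpa1 lies at chr6:30638968-30639267 on the plus strand and Cel at chr2:28563354-28563653 on the minus strand.
Cpa1: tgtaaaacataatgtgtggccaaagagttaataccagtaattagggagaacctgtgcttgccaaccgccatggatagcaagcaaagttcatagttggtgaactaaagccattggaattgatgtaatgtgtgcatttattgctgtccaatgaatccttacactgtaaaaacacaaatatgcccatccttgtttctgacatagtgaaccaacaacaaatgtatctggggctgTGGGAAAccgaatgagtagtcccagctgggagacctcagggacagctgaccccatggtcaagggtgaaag
Cel: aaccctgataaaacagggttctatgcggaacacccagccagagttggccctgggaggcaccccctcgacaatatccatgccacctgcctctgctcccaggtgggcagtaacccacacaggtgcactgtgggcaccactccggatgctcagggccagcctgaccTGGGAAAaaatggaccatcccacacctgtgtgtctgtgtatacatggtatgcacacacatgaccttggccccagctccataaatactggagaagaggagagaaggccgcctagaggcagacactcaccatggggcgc
On both strands TTTCCCA was found in the windows of 6 of the 16 called acinar genes that had one (Cel, Cela2a, Cpa1, Ctrb1, Prss2 and Reg1), beside 8.06% of all 32851 windows. This is a match of letters and no evidence of binding.

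Among the liver genes H2-Ea, the alpha chain of the MHC class II molecule I-E, differed most. It read 5605 and 5622 on the MOER oil arrays and 23.2 and 23.4 on the ERKO oil arrays, and was at least 100.4-fold higher in MOER (adjusted p = 1.1e-11). Under PPT it also separated the genotypes, with 2656 and 2603 in MOER and 18.0 and 16.8 in ERKO, while wild type oil arrays read 15.4 and 19.8. The MOER arrays were thus the only ones of the series with a bright H2-Ea signal. As background, a deletion silences this gene in the MHC haplotype of C57BL/6, the strain that the labels give for every array; the strain was not tested. The other 6 tested genes of the MHC class II list were not called, among them the partner chain H2-Eb1 (474 and 372 in ERKO, 606 and 598 in MOER, adjusted p = 0.0756), H2-Aa (0.19 ± 0.13, adjusted p = 0.506) and the invariant chain Cd74 (0.48 ± 0.15, adjusted p = 0.139). Without ERKO oil replicate 1, 5 of the 7 tested genes of this list were higher in MOER, where 9.25% of all genes were, and without replicate 2 it was 1.

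Gbp11, an interferon-inducible GTPase, read 2109 and 2026 in MOER and 459 and 491 in ERKO, a log2 difference of 2.08 ± 0.093 (adjusted p = 4.28e-07). Under PPT the order was the reverse, with 222 and 220.5 in MOER and 738 and 781 in ERKO. Ifi202b, a DNA-binding protein of the interferon-inducible Ifi200 family that is silent in C57BL/6 as background, read 149.8 and 154 in MOER and 84.7 and 44.8 in ERKO (1.10 ± 0.2, adjusted p = 0.0184), a call lost without either MOER oil array. It was also bright in ERKO under PPT (97.3 and 83.3), and near 0 in wild type under oil (6.31 and 3.27) and MOER under PPT (4 and 7.57). On the interferon list 0 of 18 tested genes were higher and 1 was lower, beside 0.915% and 1.24% of all genes. The lower one was Ifit1, an RNA-binding antiviral protein, at -0.56 ± 0.094 (adjusted p = 0.0124; not called without MOER oil replicate 2). Without ERKO oil replicate 1 the list had 1 higher and 1 lower, and without replicate 2 it had 0 higher and 8 lower with a median of -0.42, where 4.83% of all genes were lower and their median was -0.05. Cd207, the lectin langerin, read 368 and 360.4 in MOER against 193 and 146 (1.05 ± 0.12, adjusted p = 0.00106), and differed in the same direction under PPT (0.94 ± 0.12). Pctp, a phosphatidylcholine carrier, read 582 and 569 in MOER, 284 and 251 in ERKO and 1233 and 1225 in wild type. Its difference was 1.06 ± 0.09 under oil (adjusted p = 0.000131) and 1.45 ± 0.09 under PPT.

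The 14 liver genes with the largest higher levels in MOER also held Tubb2a, a beta tubulin (1.16 ± 0.17, adjusted p = 0.00688, not called without MOER oil replicate 1), and Tafa2, a secreted chemokine-like protein (1.09 ± 0.13, adjusted p = 0.00117). The transcripts G530011O06Rik (1.43 ± 0.19, adjusted p = 0.00329) and 9030619P08Rik (1.10 ± 0.1, adjusted p = 0.0002) belonged to the same set. Vcpkmt, a lysine methyltransferase, was called at 1.15 ± 0.25 (adjusted p = 0.0415), but lost the call in 11 of the 12 fits that leave out 1 array. The hepcidin genes moved apart. Hamp2 read 10809.7 and 9364 in MOER against 4641 and 3674 (1.28 ± 0.13, adjusted p = 0.000601). Its near-identical copy Hamp read 3830.4 and 3802 against 5896 and 5536 (-0.58 ± 0.096, adjusted p = 0.0121, not called without either MOER oil array). Their sequences are alike, so signal can be shared between their probe sets.

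**Figure D3:**
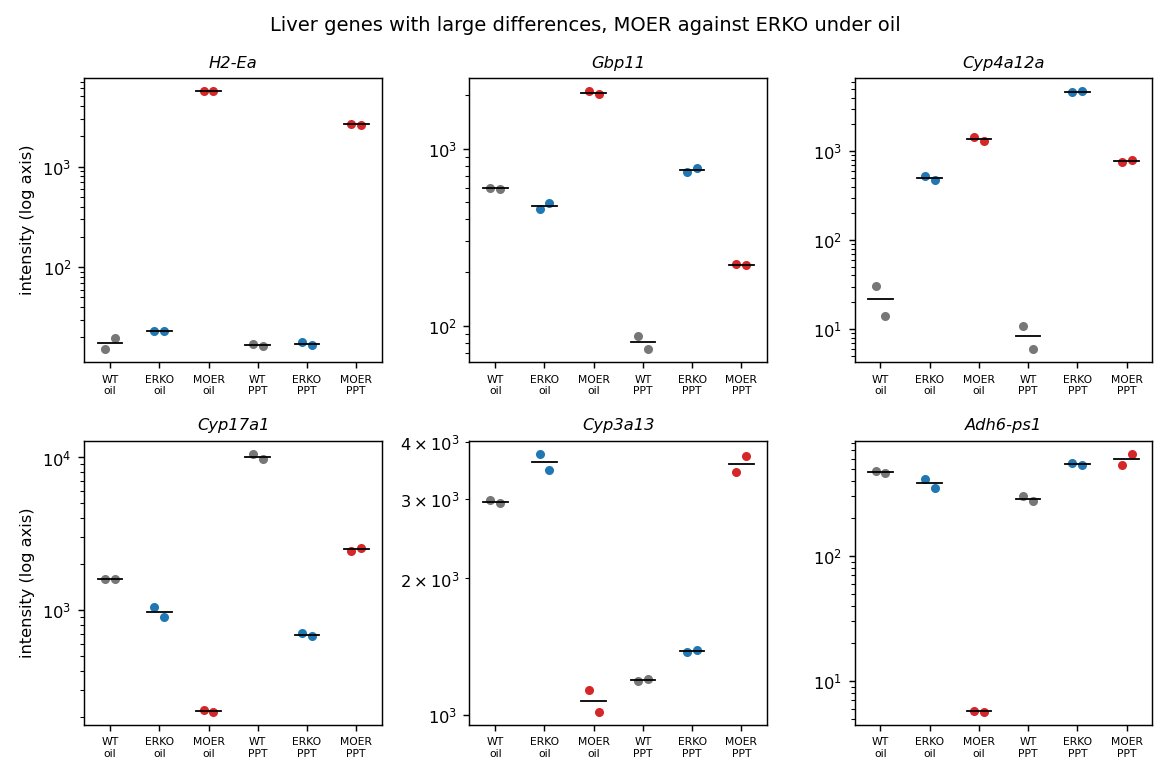
Deposited intensity (log axis) of 6 liver genes on each of the 12 arrays, by group, with a line at each group mean. H2-Ea is bright on the 4 MOER arrays alone; Gbp11, Cyp4a12a, Cyp17a1 and Cyp3a13 separate MOER from ERKO in 1 direction under oil and in the other under PPT; Adh6-ps1 is near 6 on the MOER oil arrays and above 250 on the other 10.

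Cytochrome P450 genes were found on both sides. Cyp17a1, which makes androgen precursors, read 222 and 216 in MOER, 1045 and 902 in ERKO and 1588 and 1593 in wild type; MOER was lower than ERKO by a log2 difference of -2.07 ± 0.095 (adjusted p = 5.3e-07). Cyp3a13, a drug- and steroid-oxidizing enzyme, read 1135 and 1017 against 3763 and 3473 (-1.74 ± 0.092, adjusted p = 2.06e-06). Cyp39a1, an oxysterol 7-alpha-hydroxylase of bile acid synthesis, read 238 and 226 against 715 and 657 (-1.50 ± 0.089, adjusted p = 5.84e-06). For these 3 enzymes the MOER oil and ERKO oil arrays did not overlap. That held for all 392 called probe sets and was a condition for naming these genes, so nothing is read from it. In the opposite direction, Cyp4a12a, a fatty acid hydroxylase of male liver, read 1434 and 1313 in MOER and 525 and 479.9 in ERKO (1.42 ± 0.17, adjusted p = 0.00181), and its close copy Cyp4a12b 1189 and 952 against 439 and 381 (1.34 ± 0.12, adjusted p = 0.0002). Wild type livers under oil read 30.2 and 13.9 for Cyp4a12a, so both mutants lay above wild type. The 2 copies are similar enough to share signal.

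The largest fall in MOER was in Adh6-ps1, annotated as an alcohol dehydrogenase pseudogene, which read 5.78 and 5.69 in MOER oil against 412 and 351 in ERKO oil and was at least 6.33-fold lower (adjusted p = 4.48e-09). MOER mice given PPT read 534 and 655, so the low level was seen in MOER under oil and not in MOER under PPT. Abcb1b, a drug efflux pump, read 39.9 and 39.0 against 214 and 166 and was at least 3.14-fold lower (adjusted p = 0.000221); under PPT it was again lower in MOER. Csad, which makes the taurine precursor hypotaurine, read 140.0 and 119.8 against 503 and 374 (-1.63 ± 0.14, adjusted p = 0.000134). Arl2bp, a partner of a small GTPase, was at least 3.04-fold lower (adjusted p = 8.15e-05) and was lower under PPT as well. Coq10b, a coenzyme Q binding protein, differed by -1.25 ± 0.14 (adjusted p = 0.00112), and Crybb3, a crystallin, was at least 1.9-fold lower (adjusted p = 0.0052).

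Clock genes differed between the genotypes: Arntl, the activator, was higher in MOER, and 8 other genes of the clock list were lower. Arntl read 221 and 207 in MOER and 69.5 and 68.8 in ERKO (1.43 ± 0.084, adjusted p = 5.29e-06), with wild type at 171 and 169. Dbp, a PAR-domain transcription factor that Arntl drives, read 205 and 240.2 against 619.5 and 532 (-1.31 ± 0.11, adjusted p = 0.00014). For both genes the arrays of the genotypes did not overlap, which held for all 392 called probe sets and was a condition for naming them. Ciart, a repressor of the clock, read 65.1 and 111 against 527 and 354 (-2.14 ± 0.31, adjusted p = 0.00503). Usp2, a ubiquitin protease under clock control, read 47.1 and 42.6 against 164 and 114 and was at least 2.28-fold lower (adjusted p = 0.00258). Per3, a period gene, read 65.5 and 58.6 against 146 and 128 (-0.97 ± 0.11, adjusted p = 0.00106). The other 4 had smaller differences: -0.66 ± 0.12 in Tef and -0.42 ± 0.091 in Hlf, both PAR-domain factors, -0.54 ± 0.094 in Per2 and -0.48 ± 0.1 in the repressor Nr1d2, with adjusted p-values from 0.0148 to 0.0454. Wee1, a mitotic kinase that is also a clock target and stood outside the list, read 180.0 and 139 against 542 and 497 (-1.62 ± 0.16, adjusted p = 0.000347).

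Of the 17 clock genes tested, 1 was higher and 8 were lower, beside 0.915% and 1.24% of all genes, and 8 were not called; the list's median log2 difference was -0.42, beside 0.03 over all genes. Of the 17, 2 (Bhlhe41 and Per1, neither called) passed the filter only through the ERKO oil arrays, so the count and median are a description. The count was 2 higher and 8 lower without ERKO oil replicate 1 and 1 higher and 10 lower without ERKO oil replicate 2. Arntl and Dbp kept their calls under all 11 alternative settings and without any single array. Ciart and Usp2 lost theirs with array quality weights and Per3 with the 4 arrays fitted alone. Tef lost its call without either MOER oil array and Per2 without MOER oil replicate 2; Hlf and Nr1d2 lost theirs in 10 and in 8 of the 12 fits that leave out 1 array. Not called were the partner gene Clock (0.25 ± 0.088, adjusted p = 0.181), the repressors Cry1 (0.13 ± 0.12, adjusted p = 0.622) and Nr1d1 (-0.26 ± 0.095, adjusted p = 0.212), and Bhlhe40 (-0.64 ± 0.16, adjusted p = 0.0801). Under PPT the differences of Arntl (-0.76 ± 0.084, adjusted p = 0.000178), Dbp (1.15 ± 0.11, adjusted p = 7.81e-05) and Tef (0.83 ± 0.12, adjusted p = 0.000928) had the opposite sign. Usp2 was called in the opposite direction there too (58.7 and 58.1 in MOER against 27.9 and 43.9, adjusted p = 0.0464), with both groups dim. Per3 (71.1 and 82.3 against 62.9 and 52.5, adjusted p = 0.0547) and Ciart (135 and 75.8 against 74.7 and 56.4, adjusted p = 0.245) had MOER arrays above the ERKO arrays under PPT and were not called. The labels do not give the hour of collection, so the hour and the genotype cannot be told apart.

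**Figure D4:**
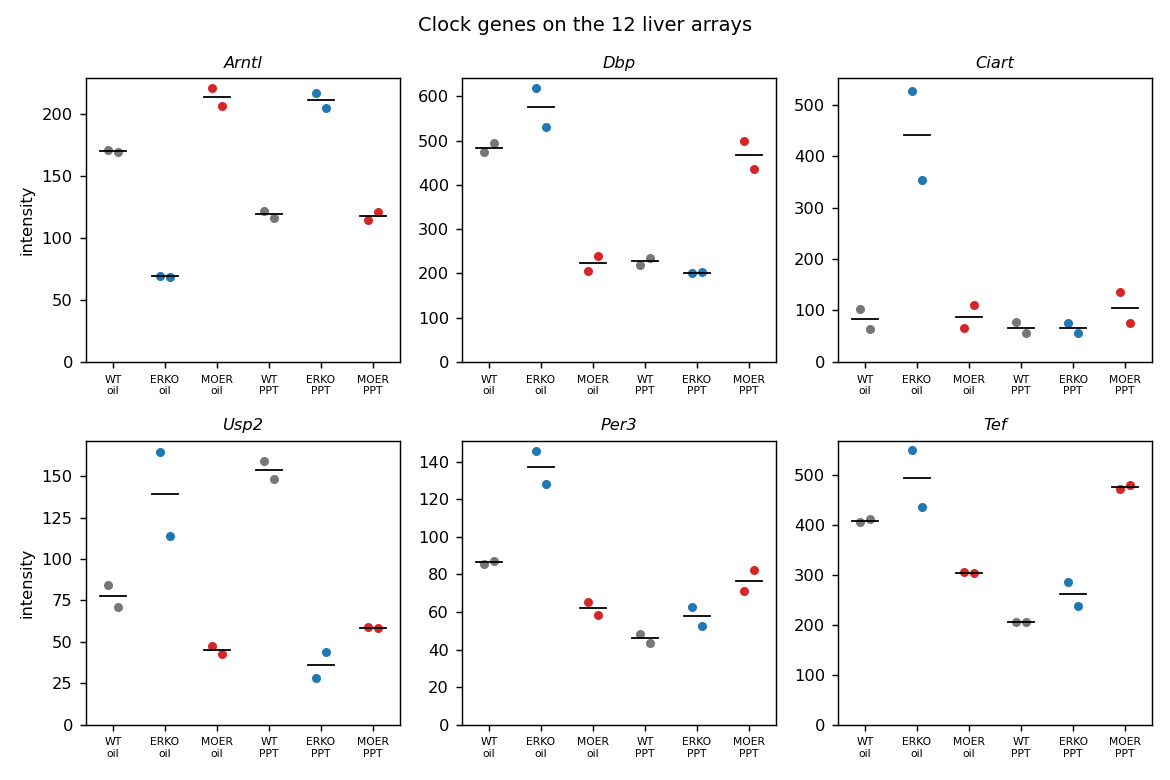
Deposited intensity (linear axis from 0) of 6 clock genes on each of the 12 arrays, by group, with a line at each group mean. Under oil Arntl is higher in MOER than in ERKO, and Dbp, Ciart, Usp2, Per3 and Tef are lower; under PPT all 6 are ordered the other way, of which Per3 and Ciart were not called there.

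The windows around the start sites of Arntl, Ciart and Per3 are shown because each holds the element through which clock proteins are known to act on it: TAGGTCA, bound by ROR and Nr1d factors, in Arntl, the E-box CACGTG, bound by Arntl with Clock, in Ciart, and the D-box TTATGTAA, bound by Dbp, Tef and Hlf, in Per3. Elements are in capitals, in the same kind of window and build as above. Arntl lies at chr7:113207261-113207560 on the plus strand, Ciart at chr3:95882179-95882478 on the minus strand and Per3 at chr4:151044616-151044915 on the minus strand.
Arntl: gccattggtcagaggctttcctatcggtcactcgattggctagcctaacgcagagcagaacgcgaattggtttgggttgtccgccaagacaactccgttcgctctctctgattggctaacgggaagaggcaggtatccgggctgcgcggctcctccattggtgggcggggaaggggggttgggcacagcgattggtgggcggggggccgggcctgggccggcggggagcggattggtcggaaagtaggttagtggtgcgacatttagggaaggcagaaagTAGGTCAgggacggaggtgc
Ciart: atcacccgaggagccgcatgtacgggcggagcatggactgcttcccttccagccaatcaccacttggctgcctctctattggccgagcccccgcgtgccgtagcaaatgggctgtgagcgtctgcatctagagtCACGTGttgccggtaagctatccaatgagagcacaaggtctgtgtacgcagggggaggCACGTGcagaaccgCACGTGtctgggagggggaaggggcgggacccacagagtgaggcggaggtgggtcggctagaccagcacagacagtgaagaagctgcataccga
Per3: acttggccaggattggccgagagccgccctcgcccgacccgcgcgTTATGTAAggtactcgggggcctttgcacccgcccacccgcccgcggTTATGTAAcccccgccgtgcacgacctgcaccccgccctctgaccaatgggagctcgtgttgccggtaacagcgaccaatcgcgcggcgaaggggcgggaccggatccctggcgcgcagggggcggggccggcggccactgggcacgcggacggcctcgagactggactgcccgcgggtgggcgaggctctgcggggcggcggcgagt
Ciart holds 3 E-boxes, Per3 holds 2 D-boxes and Arntl 1 ROR element. All windows were searched on both strands, and 7.15% of the 32851 held the E-box, 0.938% the D-box and 2.61% the ROR element. Of the 9 called clock genes 8 had a window, and 2 of them, Ciart and Tef, held an E-box. Among all called genes, the E-box was found in 13.3% of 180 windows of genes lower in MOER and in 4.17% of 120 windows of genes higher in MOER. The full palindromic oestrogen response element was in 0.07% of all windows and in 0 windows of called genes.

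Acute phase proteins, which the liver secretes in inflammation, were lower in MOER where they differed. Lcn2, the iron-siderophore binding lipocalin, read 2364 and 2289 in MOER and 5499 and 5025 in ERKO (-1.17 ± 0.089, adjusted p = 5.68e-05), with wild type at 875 and 798. Serpina3n, a serine protease inhibitor, read 2595 and 2579 against 5852 and 5451 (-1.12 ± 0.083, adjusted p = 4.62e-05). MOER was near the wild type level for Serpina3n (2479 and 2461) and between wild type and ERKO for Lcn2. Steap4, a metalloreductase, differed by -0.61 ± 0.082 (adjusted p = 0.00331). Of the 26 genes tested on the list, 0 were higher and 4 lower (the fourth was Hamp), beside 0.915% and 1.24% of all genes, and the median was -0.16. The major serum amyloid Saa1 read 5798 and 5220.2 against 9396 and 6959 and was not called (-0.55 ± 0.13, adjusted p = 0.0621). Without ERKO oil replicate 1 the list had 3 higher and 5 lower, where 9.25% and 2.15% of all genes were, and without replicate 2 it had 0 higher and 10 lower, where 2.26% and 4.83% were.

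Of 10 tested neutrophil genes 4 were lower in MOER and 6 were not called, beside 1.24% of all genes that were lower; 3 of the 10 passed the filter only through the ERKO oil arrays, so the count is a description. S100a8 and S100a9, the 2 chains of calprotectin, read 330.4 and 261, and 338 and 352, in MOER against 793 and 661, and 806 and 602, in ERKO. Their differences were -1.26 ± 0.14 (adjusted p = 0.000688) and -0.98 ± 0.16 (adjusted p = 0.00952). Wild type arrays under oil read 42.6 and 37.2 for S100a8, below both mutants. Retnlg, a resistin-like protein of neutrophils (-1.16 ± 0.2, adjusted p = 0.0151), and Prtn3, a granule protease (-1.08 ± 0.19, adjusted p = 0.0185), were lower too, while Ngp, a granule protein (-0.89 ± 0.27, adjusted p = 0.137), was not called. The number of lower genes was 4 without ERKO oil replicate 1 and 6 without replicate 2, where 2.15% and 4.83% of all genes were lower. Without either MOER oil array S100a9 and Retnlg were not called, and Prtn3 was not called without replicate 2. The summed level of the 12 listed genes was 2882 and 2084 in ERKO oil, 1409 and 1223 in MOER oil and 563 and 509 in wild type oil. These sums moved with the acute phase genes, and their part in that result was not tested. Macrophage and Kupffer cell markers had sums of 16471.5 and 14479.5 in ERKO and 16316 and 16091 in MOER, groups that overlap.

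Of 20 tested genes of triglyceride storage 5 were lower in MOER and 1 was higher, beside 1.24% and 0.915% of all genes. Plin2, the main coat protein of hepatic lipid droplets, read 2305 and 2311 in MOER and 3369 and 3198 in ERKO (-0.51 ± 0.08, adjusted p = 0.00933), and Lpin2 and Lpin1, phosphatidate phosphatases, differed by -0.63 ± 0.085 (adjusted p = 0.00341) and -0.65 ± 0.12 (adjusted p = 0.0218). Vldlr, a receptor for triglyceride-rich lipoproteins, read 141 and 121 against 419 and 264 (-1.25 ± 0.17, adjusted p = 0.00427). Cideb, a droplet protein of lipoprotein secretion, differed by -0.46 ± 0.092 (adjusted p = 0.0312). Cd36, a fatty acid transporter, was the one that was higher (4779.8 and 4549 against 3641 and 3453; 0.39 ± 0.087, adjusted p = 0.0484). Lpin2 kept its call without any single array but lost it with array quality weights and with the 6 oil or the 4 arrays fitted alone. Plin2 and Lpin1 lost theirs in those settings and also without either MOER oil array, and Vldlr lost its call without MOER oil replicate 2. Whether Cd36 kept its call in such fits was not examined. Cideb lost its call in 8 of the 12 fits that leave out 1 array. The count was 3 higher and 6 lower without ERKO oil replicate 1 (9.25% and 2.15% of all genes), and 1 higher and 9 lower without replicate 2 (2.26% and 4.83%).

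Fatty acid and cholesterol synthesis gave few or no calls. Counts here that use every array stand beside 0.915% of all genes higher and 1.24% lower, and a single call is no result about its list. In fatty acid synthesis 1 of 18 genes was lower and 0 were higher (3 higher and 1 lower without ERKO oil replicate 1, 0 and 2 without replicate 2). Fasn, fatty acid synthase, read 535 and 502 in MOER and 651 and 558 in ERKO (-0.21 ± 0.099, adjusted p = 0.325). Srebf1, its transcriptional activator, differed by 0.22 ± 0.12 (adjusted p = 0.398), Acaca, acetyl-CoA carboxylase, by -0.02 ± 0.093 (adjusted p = 0.951) and Scd1, a desaturase, by 0.26 ± 0.095 (adjusted p = 0.213). Thrsp, a lipogenic regulator, was the gene that was lower (-0.50 ± 0.097, adjusted p = 0.0288), a call lost in 8 of the 12 fits without 1 array. In cholesterol synthesis 0 of 19 genes were called by limma, and 2 had an unadjusted p under 0.05. Differences lay between -0.3 and 0.3 and included Hmgcs1, an early enzyme of the pathway (-0.06 ± 0.087, adjusted p = 0.8). The Cyber-T style test, which counts only differences of at least 2-fold, could make no call here. Without ERKO oil replicate 1 there were 2 higher and 0 lower in cholesterol synthesis, and without replicate 2 there were 0 and 1. In bile acid synthesis Cyp8b1, which sets the cholic acid share, was called at 0.47 ± 0.1 (adjusted p = 0.0477) but lost the call in 11 of those fits. Cyp7a1, the rate-limiting enzyme, read 3287 and 3123 against 4177 and 3922 and was not called (-0.34 ± 0.087, adjusted p = 0.0862), and Cyp7b1 differed by 0.02 ± 0.098 (adjusted p = 0.933). In fatty acid oxidation 1 of 23 was higher (Cyp4a10, a fatty acid hydroxylase, 0.44 ± 0.085, adjusted p = 0.0285, lost in 10 of those fits) and 1 lower (Vnn1, a PPAR-alpha target, -0.67 ± 0.092, adjusted p = 0.00385, not called without MOER oil replicate 2). The oxidation list had 5 higher and 2 lower without ERKO oil replicate 1, and 1 higher and 4 lower without replicate 2. Ppara itself differed by -0.42 ± 0.094 (adjusted p = 0.0524). A gene that was not called is not shown to be equal in the 2 genotypes.

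Glucose handling gave 1 called gene among 13 of its list, beside 2.16% of all genes called in either direction. Gys2, the liver glycogen synthase, was that gene and read 1220.2 and 1111 in MOER and 2441 and 2195 in ERKO (-0.98 ± 0.1, adjusted p = 0.000534). Pck1, the gluconeogenic enzyme, was not called (-0.37 ± 0.1, adjusted p = 0.103). The list had 2 higher and 1 lower without ERKO oil replicate 1, and 1 higher and 3 lower without replicate 2. Pparg, the nuclear receptor of fat storage, was lower in MOER (178 and 183 against 321 and 286; -0.70 ± 0.09, adjusted p = 0.00272) and also lower under PPT (-0.66 ± 0.09, adjusted p = 0.00072). Herpud1, a membrane protein of the unfolded protein response, differed by -0.77 ± 0.11 (adjusted p = 0.00396). It was the single call among 21 stress genes, beside the same 2.16% of all genes. Lrat, which stores retinol in stellate cells, differed by -0.69 ± 0.1 (adjusted p = 0.00665; not called without either MOER oil array), and was lower under PPT too (-0.94 ± 0.1).

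Genes that differ between male and female liver, many under growth hormone control, were split. The counts of this paragraph that use every array are to be read beside 0.915% of all genes higher and 1.24% lower. Of 20 male-biased genes 2 were higher in MOER, the 2 Cyp4a12 copies, and 1 was lower, Cyp2d9, a steroid hydroxylase (-0.44 ± 0.092, adjusted p = 0.0399; lost in 10 of the 12 fits without 1 array). Of 22 female-biased genes 3 were higher and 4 lower. The lower ones were Cyp17a1, Vldlr, the peroxisomal transporter Abcd2 (-0.55 ± 0.097, adjusted p = 0.0172; not called without either MOER oil array) and A1bg, a secreted plasma protein (852 and 802 against 1986 and 1777; -1.17 ± 0.12, adjusted p = 0.000655). The higher ones were Cd36, Cyp4a10 and Cyp2b10, a target of the xenobiotic receptor CAR (0.61 ± 0.092, adjusted p = 0.00725; not called without either MOER oil array). Without ERKO oil replicate 1 the counts were 5 higher and 1 lower of the male-biased genes, and 7 higher and 5 lower of the female-biased genes, where 9.25% and 2.15% of all genes were. Without replicate 2 they were 2 and 2, and 3 and 5, where 2.26% and 4.83% were. Of 14 growth hormone signalling genes 1 was higher (3 without ERKO oil replicate 1, 1 without replicate 2): Egfr, the receptor of epidermal growth factor, at 0.37 ± 0.082 (adjusted p = 0.0498), a call lost in 10 of the 12 fits without 1 array. The other members named were not called: Igf1 differed by 0.06 ± 0.085 (adjusted p = 0.761), Socs2 by 0.16 ± 0.12 (adjusted p = 0.556) and Cish by -0.15 ± 0.14 (adjusted p = 0.613). On the list of oestrogen-responsive genes 1 of 16 was higher and 1 lower (2 and 1 without ERKO oil replicate 1, 1 and 1 without replicate 2). The higher one was Sult1e1, the oestrogen sulfotransferase, at 133 and 109.9 against 68.8 and 66.4 (0.71 ± 0.12, adjusted p = 0.0142; not called without MOER oil replicate 1), and the lower one Cyp17a1.

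Of 15 drug metabolism genes 3 were higher and 1 lower, Cyp3a13, beside 0.915% and 1.24% of all genes. The higher ones were Cyp2c55 (0.91 ± 0.13, adjusted p = 0.00442), Cyp2b10 and Cyp1a2, which oxidizes aromatic amines (0.48 ± 0.091, adjusted p = 0.0267; lost in 8 of the 12 fits without 1 array). There were 6 higher and 1 lower without ERKO oil replicate 1, and 3 and 2 without replicate 2. No gene was called by limma in the lists of cell cycle (20 tested), oxidative phosphorylation (23), urea cycle (8), secreted hepatocyte proteins (17), heat shock and handling (17), lymphocytes (10), sinusoidal endothelium (12), skeletal muscle (16), squamous epithelium (10) or mesothelium (7). Together with cholesterol synthesis, bile duct, islet, and kidney and adrenal markers, these lists held 174 tested genes, of which 26 had an unadjusted p under 0.05. The Cyber-T style test called 0 of them, but it asks for a difference of at least 2-fold. The largest log2 difference in these lists was 0.94, so that 0 was fixed in advance and nothing is read from it. Several of these counts changed without 1 ERKO oil array. Without replicate 1, where 9.25% of all genes were higher, 8 of the 17 secreted hepatocyte genes, 5 of the 12 sinusoidal endothelial genes, 4 of the 17 heat shock and handling genes, 4 of the 23 oxidative phosphorylation genes and 1 of the 8 urea cycle genes were higher. In the islet, muscle and squamous lists 1 gene each was higher, and 1 muscle gene was lower. Without replicate 2, 1 heat shock and handling gene and 1 muscle gene were higher, and 2 oxidative phosphorylation genes and 1 cell cycle gene were lower. Over all probe sets 1699 higher and 1421 lower had an unadjusted p under 0.05. Alb, the albumin gene that marks hepatocytes, read 20629.5 and 14804 in ERKO and 21848 and 20179 in MOER (0.26 ± 0.13, adjusted p = 0.36) and was among the brightest genes. Its lowest value was on ERKO oil replicate 2.

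The same 2 genotypes were compared under PPT on 4 other arrays, which share no array with the oil comparison. There 22.1% of all probe sets were called, 10% higher and 12.1% lower in MOER. Of the 392 probe sets called under oil, 65 were called in the same direction under PPT (27 higher and 38 lower), 111 in the opposite direction and 216 not at all. The count of 65 changed when 1 array was left out, as did the number of probe sets called under oil from which it was taken. The 2 differences themselves differed, by an interaction term, in 273 of the 392, beside 11.5% of all probe sets; that term holds the oil arrays that chose the 392, so nothing is read from this share. Beside the acinar list, described genes called in the same direction were H2-Ea, Pctp, Cd207, G530011O06Rik, Sult1e1, Cyp2b10, Cyp1a2 and Egfr, which were higher in MOER, and Pparg, Lrat, Abcb1b, Arl2bp, S100a8, S100a9, Crybb3, Thrsp and Cyp2d9, which were lower. Genes in the opposite direction included Cyp17a1 (1.83 ± 0.095 under PPT, adjusted p = 5.19e-07), Cyp3a13 (1.36 ± 0.092, adjusted p = 4.32e-06), Cyp4a12a (-2.57 ± 0.17, adjusted p = 4.41e-06), Gbp11 (-1.71 ± 0.093, adjusted p = 7.79e-07), A1bg (1.00 ± 0.12, adjusted p = 0.000388) and Gys2 (0.91 ± 0.1, adjusted p = 0.000196). The acinar enzymes named above were not called under PPT, with Reg1 (1.28 ± 0.11, adjusted p = 3.57e-05) as the exception. Both groups were dim for Reg1 there (45.99 and 43.11 in MOER, 9.58 and 8.22 in ERKO). Dmbt1, a mucosal scavenger receptor on the acinar list, read 81.3 and 75.8 in MOER and 20.2 and 26.6 in ERKO under oil, and 314 and 359 against 28.1 and 25.8 under PPT, so its difference was larger under PPT. The ERKO PPT arrays also carried skeletal muscle and squamous epithelium transcripts, with muscle list sums of 20437.9 and 19323.8 against 785 to 1071 on the other 10 arrays, and squamous list sums of 7188.79 and 7188.55 against 759 to 969 on the oil and MOER PPT arrays; the wild type PPT arrays had squamous sums of 4506.95 and 4128.38; their part in the PPT differences was not tested.

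**Figure D5:**
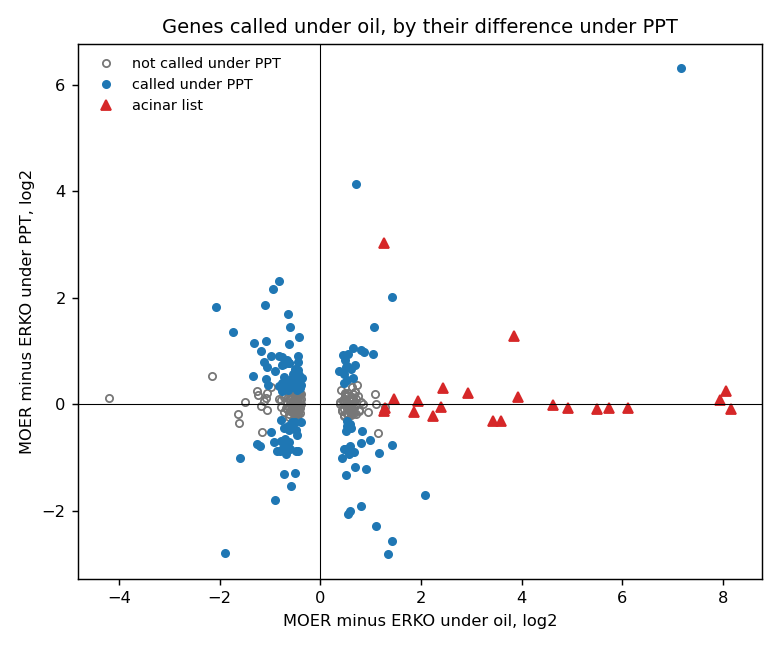
Each point is 1 of the 302 genes called between MOER and ERKO under oil, with its log2 difference under oil along the horizontal axis and under PPT along the vertical axis; the 2 differences share no array. H2-Ea stands at 7.16 and 6.31, the acinar genes (red triangles) lie near 0 under PPT apart from Dmbt1 at 3.04 and Reg1 at 1.28 (dim in both PPT groups), and filled circles off the diagonal, such as Cyp17a1 at -2.07 and 1.83, were called in opposite directions.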

How the data were processed

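Per the labels, total RNA of 3 pooled livers was hybridised to Affymetrix Mouse Gene ST arrays. The deposited values are intensities on a linear scale, 1 per probe set and array, and how the authors summarised and normalised them was not stated (not given in the sources used here). Values were used without further normalization, since array medians lay between 77.5 and 85.26, and the number of arrays limits the precision. All 12 arrays entered 1 limma fit (lmFit and eBayes, limma 3.58.1, R 4.3.3) of 6 group means on log2(intensity + 16), with 10.47 degrees of freedom, of which 6 were residual. Tests were two-sided and adjusted by Benjamini-Hochberg over 19119 probe sets. The fit was tested on simulated data of 19119 genes. It recovered 43.9% of true log2 differences of 0.5, 86.6% of those of 1 and 98.5% of those of 2, with 10 false calls. In that simulation a difference of 0.5 was thus missed more often than found. A gene was represented by its brightest probe set, named from the platform annotation updated through the RefSeq table of GRCm38.p6.

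Named were the 15 called genes with the largest difference on each side (14 were eligible on the higher side), at least 2-fold, with separate arrays and in no list of another tissue, the 8 acinar genes of smallest p, up to 5 called and 2 uncalled genes of a list, and fixed genes. Try4, Cpa1, Dmbt1, Tef, Per2, Nr1d2, Hlf, Nr1d1, Clock, Cry1, Ctrb1, Cela2a, Reg3b, Ptf1a, Bhlha15, Nr5a2, H2-Aa, Alb, Bhlhe41 and Per1, and those in the closing section, were added after their values were seen. The comparison, the members and the lists were chosen with earlier results of these data known. Errors of log2 differences are standard errors of the fit with 2 arrays a group. Some fixed genes are not reported here.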

Additional observations from a re-analysis of the deposited data

Results flagged for a closer look

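The log2 difference MOER minus ERKO was taken under PPT and under oil, and the PPT value minus the oil value was tested as an interaction term (limma, adjusted p under 0.05) for the named genes. A negative value means that MOER stood lower against ERKO under PPT than under oil. It uses the same oil arrays as the oil difference itself, so a gene picked for a large oil difference leans towards a large value here. Among all probe sets 11.5% were called in this test. For acinar genes it was -8.25 for Cpb1, -7.82 for 2210010C04Rik, -6.16 for Ctrl, -5.79 for Rnase1, -4.99 for Try5, -4.63 for Cel, -3.78 for Pnliprp1 and -2.56 for Reg1. For liver genes higher in MOER under oil it was -0.85 for H2-Ea, -3.79 for Gbp11, -2.19 for Arntl, -3.99 for Cyp4a12a, -4.16 for Cyp4a12b, -1.33 for Hamp2, -2.07 for Tubb2a, -1.68 for Vcpkmt, -1.09 for 9030619P08Rik, -3.39 for Ifi202b, -0.88 for Tafa2 and -1.29 for Cyp8b1, and with the other sign 3.42 for Sult1e1. For liver genes lower in MOER under oil it was 3.90 for Cyp17a1, 4.30 for Adh6-ps1, 3.10 for Cyp3a13, 2.68 for Ciart, 2.46 for Dbp, 1.87 for Usp2, 1.55 for Cyp39a1, 1.5 for Vldlr, 1.44 for Csad, 1.43 for Coq10b, 1.27 for Wee1 and 1.13 for Lcn2, and -0.90 for Abcb1b, whose difference grew under PPT. For fixed genes not called under oil it was -1.48 for Socs2, -0.54 for Hmgcs1, 1.93 for Pck1 and 0.75 for Ppara. The ERKO PPT arrays carried skeletal muscle and squamous epithelium transcripts, as given above, and their part in these values was not tested. Groups of 2 arrays are too small to test for an outlying array.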

How the results depend on the processing

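No called value changed sign under any setting; of the uncalled genes described, Alb ranged from -0.05 to 0.5, H2-Aa from -0.01 to 0.39, Reg3b from -0.16 to 0.32, Cyp7b1 from -0.08 to 0.13, Acaca from -0.06 to 0.03, Hmgcs1 from -0.12 to 0.01 and Cish from -0.37 to 0.06. Of the 92 called genes put through the settings, not all of which are described here, 36 kept their call under all 11 settings other than leaving out 1 array. The Cyber-T style test was not among the 11. Not all of the 92 kept their call when 1 array was left out. Counts of higher and lower probe sets (171 and 221) were 105 and 131 with no filter, 275 and 624 with median centring and 299 and 520 with quantile normalization. They were 283 and 484 with an intensity trend, 47 and 39 with array quality weights, 45 and 46 with the 6 oil arrays and 37 and 23 with 4 arrays. With the 60th percentile filter 345 were lower. The Cyber-T style test calls on an unadjusted p and asks for a difference of at least 2-fold. It gave 44 higher and 32 lower, to be read beside the 46 and 34 called at least 2-fold. Of those at least 2-fold lower (34), there were 19 with log2(intensity + 64) and 22 with array weights. Calls in the same direction under PPT (65) were 98 with log2(intensity + 64), 43 with no filter and 104 with the 60th percentile filter. They were 170 with median centring, 169 with quantile normalization, 180 with the trend and 20 with array weights. The Cyber-T style test gave 8, all at least 2-fold under both oil and PPT, so this count is not comparable with 65. Interaction calls among oil calls (273) were 164 with no filter, 617, 573 and 485 with median centring, quantile normalization and trend, and 71 with array weights. Without the acinar list and amylase, chosen after seeing the data, 23 were at least 2-fold higher. These 23 still hold probe set 10537650, shared by 4 genes of the acinar list. Leaving out 1 array gave 67 to 1739 higher, 56 to 863 lower, 42 to 116 and 24 to 102 at least 2-fold higher and lower, 20 to 22 acinar genes, 23 to 387 in the same direction under PPT and 100 to 1426 interaction calls; a lone array is assumed to vary like the other groups. The cause was not tested. Median centring moved the median difference of all probe sets from 0.033 to 0.007 and quantile normalization to -0.005. With the replicate block there were 163 higher and 197 lower. Deviations of same-numbered oil arrays correlated at 0.276 to 0.377, the highest being ERKO oil with MOER oil, and the other pairs of groups at -0.147 to 0.127. The block fits 1 replicate effect over all 6 groups, so a pairing among the oil arrays alone was not tested. Of the genes described, H2-Eb1 and Bhlhe40 were called with the block, and Nr1d2 and Egfr were not. Small differences are limited by 2 arrays a group, by the spread in ERKO oil and, for dim genes, by the added 16.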

Other observations

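Several called genes outside the lists were picked after their values were seen and are given as values. Alas1, the rate-limiting enzyme of haem synthesis, read 1179 and 1164 in MOER oil, 2498 and 2388 in ERKO oil and 1144 and 1238 in wild type oil (-1.05 ± 0.088, adjusted p = 0.000123), so that ERKO stood apart from the other two. These genes stand for no list: on the glucose list 1 of 13 was called, beside 2.16% of all genes. Slc2a2, the hepatic glucose transporter, read 1383 and 1502 against 2530.1 and 2398 (-0.77 ± 0.1, adjusted p = 0.00284), Slc37a4, the glucose-6-phosphate transporter, differed by -0.62 ± 0.11 (adjusted p = 0.0142; not called without either MOER oil array) and Stbd1, a glycogen-binding protein, by -0.79 ± 0.11 (adjusted p = 0.00389; not called without MOER oil replicate 2). Under PPT Slc2a2 (0.74 ± 0.1) and Slc37a4 (0.78 ± 0.11) were higher in MOER. Abcb1a, the neighbour and paralogue of Abcb1b, differed by -0.72 ± 0.088 (adjusted p = 0.0019). A probe set shared by 4 Sult2a sulfotransferase genes read 113 and 87.8 in MOER, 15.3 and 8.50 in ERKO and 4706 and 4824 in wild type under oil.

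Of 291 called protein-coding genes 65 (22.3%) had another called gene among the 3 tested genes on either side, beside 11.9% of all tested genes, and the rest had none. The 65 include the acinar genes Cpb1 and Cpa1 and, on chromosome 6, the trypsinogen genes 2210010C04Rik, Try4, Try5, Try10 and Prss2. Neighbours of the same family moved together at Cyp4a12a, Cyp4a12b, Cyp4a10 and Cyp4a31 and at S100a8 and S100a9, and apart in the Ifi200 family, where Ifi202b was higher while Ifi207 (-0.91 ± 0.14, adjusted p = 0.00683; not called without MOER oil replicate 2) and Ifi209 (at least 1.7-fold, adjusted p = 0.000938) were lower. Gbp4, a GTPase of the family of Gbp11, was higher in MOER (771 and 702 against 391 and 334; 0.99 ± 0.12, adjusted p = 0.0021). Probes of related genes can share signal, and its part in these pairs was not tested.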
